A study of Sus scrofa with 14 samples.

Results

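Cells of the outer zone of the porcine medial meniscus, grown in monolayer to the third passage (P3 cells), were compared with P3 cells of the inner zone. The comparison rests on 5 of the 14 libraries of the study, chosen by their labelled zone and passage: outer zone P3 cells 147 and 148 (n = 2) and inner zone P3 cells 147, 148 and 149 (n = 3). The other 9 libraries are cartilage and inner and outer zone meniscus explants, and they entered the model to estimate the spread between libraries and served to choose genes by their zone in tissue. All animals were skeletally mature female pigs, and the menisci came from an abattoir. Cells were freed from the outer rim or from the inner part of the meniscus with pronase and then collagenase, and both zones were expanded on culture plastic in the same serum medium with ascorbate. Unpassaged cells are not among the libraries analysed here. Poly(A) RNA was sequenced with a stranded kit. The labels give the numbers 147, 148 and 149 without saying whether a number is an animal, and no outer zone library 149 is among those analysed here. They also do not say whether libraries of a zone came from separate cultures of separate animals, and what a p-value measures here is the spread between libraries of a group, over all 14 libraries, which may be technical.

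The meniscus is a fibrocartilage. Its outer zone is vascular and rich in type I collagen, and its cells are often described as fibroblast-like. The inner zone is avascular, holds more aggrecan and type II collagen, and its cells are often described as closer to chondrocytes. In monolayer both chondrocytes and meniscus cells tend to lose cartilage matrix genes and to gain type I collagen and contractile genes, so the question is which differences of the zones can still be read in cells after passaging.

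The 5 libraries held 31523186 to 43304412 reads counted on genes, and the 10 genes with most reads took 21.6% and 24.2% of the outer zone libraries and 26.5% to 28.1% of the inner zone libraries. Levels are given as CPM, which is reads scaled to a common library size after TMM scaling, and 1 CPM stood for 31.6 to 46.1 reads depending on the library. All libraries had the profile of mesenchymal cells. Each of the 15 tested fibroblast and mesenchymal markers was detected in every library, with 161500 and 181300 CPM in sum in outer zone cells, against 201100 to 229100 CPM in inner zone cells. DCN, the proteoglycan decorin, had 542 and 875 CPM in outer zone cells, against 583, 724 and 563 CPM in inner zone cells. PRRX1, a transcription factor of limb mesenchyme, had 1331 and 1616 CPM in outer zone cells and 1361 to 1373 CPM in inner zone cells. Of 27 tested chondrogenic genes, 10 averaged below 1 CPM in both zones, COL9A1, CNMD and MATN3 among them, while COL11A1, COMP and ACAN had over 100 CPM in every library. Among markers of other cells, the leukocyte gene PTPRC had 0 reads in all 5 libraries, and 11 of 15 endothelial genes averaged below 1 CPM in both zones, CDH5, KDR, TEK and VWF among them. The endothelial list summed to 48.7 and 49.5 CPM in outer zone cells, against 51.1 to 62.3 CPM in inner zone cells, and ERG and PECAM1 made up most of it. PECAM1 had 10.8 and 14.5 CPM in outer zone cells and 4.84, 11.9 and 4.24 CPM in inner zone cells.

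The libraries did not fall into tight groups by zone. On variance-stabilized counts, the 6 distances between an outer and an inner zone library averaged 39.1 (range 29.8 to 44.4), and the 4 distances within a zone averaged 34.9 (range 26.3 to 41.2). Outer zone 147 and 148 were 35.6 apart. Inner zone 147 and 148 were 26.3 apart, while inner zone 149 was 41.2 from inner zone 147, 36.6 from inner zone 148 and 33.7 from outer zone 148. Outer zone 147 was 43.6 to 44.4 from the inner zone libraries, the largest distances of all. Inner zone 149 and outer zone 147 thus stood apart from the other libraries of their zones. The labels give no reason to leave either out. Results that turn on inner zone 149 are given with and without it, and differences within number 148 do not use either library.

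No gene was called different between outer and inner zone P3 cells in the quasi-likelihood F test of edgeR, with all 14 libraries in 1 model (0 of 15707 tested genes, 0%). A gene counted as called at an adjusted p (Benjamini and Hochberg) under 0.01 and an absolute log2 difference above 1. An unadjusted p under 0.05 was reached by 505 genes, or 3.22% of those tested. The smallest adjusted p was 0.246, for C2. DESeq2 on the same 14 libraries called 10 genes (0.0637%), 8 higher and 2 lower in outer zone cells, and DESeq2 on the 5 cell libraries alone called 92 (0.648%), 74 higher and 18 lower. The genes named hereafter are therefore described by their level in each library and by whether the libraries of the zones overlap. None of their differences passed the edgeR test of all 14 libraries. Some were called by an alternative edgeR fit of the 5 cell libraries with number as a block. That fit has 1 residual degree of freedom. Its adjusted p was 9.4e-04 for ALDH1A1, 0.00195 for COL2A1 and SPP1 and 0.00742 for C2, but 0.0181 for SFRP2. Each ± value is an SE from the edgeR fit of all 14 libraries. It takes in the spread of explants and cartilage and is not the spread of the cell libraries alone. Over all tested genes, both outer zone libraries lay above all 3 inner zone libraries for 1865 genes (11.9%) and below them for 1732 genes (11%). Without inner zone 149 these counts were 3177 (20.2%) and 3269 (20.8%). These shares are the background for the counts of non-overlapping members of gene lists. In bulk RNA, fewer cells that express a gene and less RNA of it per cell cannot be told apart.

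**Figure D1:**
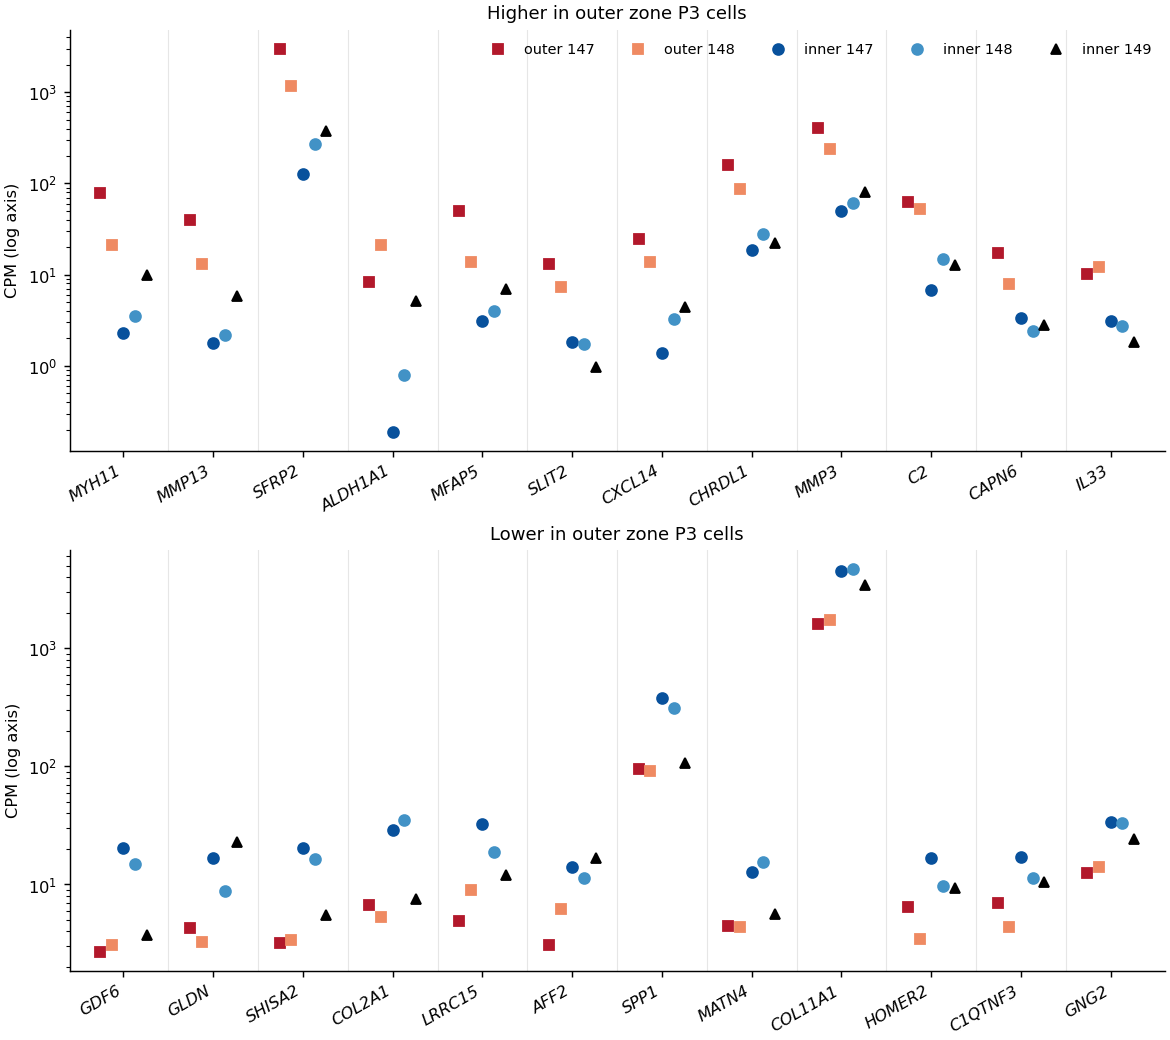
Level of the 12 genes that stood highest (top) and the 12 that stood lowest (bottom) in outer zone relative to inner zone P3 cells, among genes whose zones do not overlap, that point the same way within numbers 147 and 148 and that average at least 10 CPM in the higher zone. Each point is 1 library in CPM on a log axis, outer zone libraries as squares on the left of each gene and inner zone libraries as circles and triangles on the right; SFRP2 reached 2953 and 1168 CPM in outer zone cells, while COL11A1 had 1600 and 1728 CPM there, below all inner zone libraries.

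Some genes of contractile smooth muscle stood higher in outer zone cells, MYH11 and ACTG2 most of all. MYH11, the heavy chain of smooth muscle myosin, had 77.6 and 21.2 CPM in outer zone cells, against 2.31, 3.51 and 9.96 CPM in inner zone cells. Both outer zone libraries lay above the 3 inner zone libraries, and the log2 difference was 3.22 ± 1.14 (SE), the largest of any gene shown in the plot of leading genes. The count table leaves this gene unnamed, and its symbol is taken from the table of identifiers. ACTG2, the gamma actin of enteric smooth muscle, had 201 and 113 CPM in outer zone cells and 31.3, 57.6 and 42.6 CPM in inner zone cells (1.84 ± 0.54). Its coding sequence is close to that of other actins, so part of its reads may be lost or shared where reads must map to a single place. DES, which encodes the intermediate filament desmin, had 39.2 and 21.2 CPM in outer zone cells, against 3.77, 5.54 and 20.6 CPM in inner zone cells. Inner zone 149 was almost at the level of outer zone 148 for this gene. MYLK, the kinase that phosphorylates myosin light chain, had 92.5 and 49.9 CPM in outer zone cells and 20.2, 24.3 and 29.0 CPM in inner zone cells (1.54 ± 0.68). LMOD1, a nucleator of smooth muscle actin filaments, had 273 and 121 CPM in outer zone cells and 87.5, 96.7 and 117 CPM in inner zone cells. CNN1, calponin, overlapped between the zones, with 292 and 156 CPM in outer zone cells and 109, 117 and 170 CPM in inner zone cells.

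Of the 18 tested members of the contractile list, 6 lay higher in outer zone cells without overlap and 0 lower, against 11.9% and 11% of all tested genes. A positive log2 difference was seen in 15 of 18, with a median of 0.34 against 0.000 over all genes. The median was 0.60 within number 147 and 0.13 within number 148, and the summed level overlapped between the zones, with 18700 and 13090 CPM in outer zone cells and 15530, 14840 and 11790 CPM in inner zone cells. Without inner zone 149, the counts were 9 higher and 2 lower, against 20.2% and 20.8% of all tested genes. ACTA2 and TAGLN did not share the pattern. ACTA2, the alpha actin that marks myofibroblasts, had 5980 and 3414 CPM in outer zone cells, against 4683, 3788 and 3207 CPM in inner zone cells, and its difference of 0.27 ± 0.77 was smaller than its error. TAGLN, transgelin, had 2991 and 2097 CPM in outer zone cells and 2612, 2465 and 1739 CPM in inner zone cells (0.16 ± 0.46). Markers of pericytes and other mural cells leaned in the same direction as the list: 5 of 10 stood higher in outer zone cells without overlap and 1 lower. Of the 10, 5 averaged below 1 CPM in both zones, and at least 1 of those is counted among the higher genes. The median log2 difference was 1.25 within number 147 and 0.17 within number 148. The summed level of the markers was 1099 and 712 CPM in outer zone cells, against 434 to 617 CPM in inner zone cells. Most of that sum was ANPEP, which had 858 and 578 CPM in outer zone cells and 266 to 413 CPM in inner zone cells. The defining pericyte genes were near 0: HIGD1B had no reads, RGS5 stayed below 0.1 CPM, and ABCC9 and KCNJ8 stayed below 0.4 CPM in every library.

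Secreted frizzled-related proteins bind Wnt ligands outside the cell, and SFRP2, SFRP4 and SFRP1 stood higher in outer zone cells. SFRP2 (chromosome 8, 75337311 to 75345926, Sscrofa11.1) had 2953 and 1168 CPM in outer zone cells, against 127, 272 and 378 CPM in inner zone cells. The lowest outer zone library was above the highest inner zone library, and the log2 difference was 2.99 ± 0.69 with an adjusted p of 0.718 in edgeR. Outer zone 147 held more of it than outer zone 148, so the spread within the outer zone was wide. SFRP4 had 74.1 and 79.9 CPM in outer zone cells and 11.7, 34.0 and 27.7 CPM in inner zone cells (1.65 ± 0.38). SFRP1 had 184 and 98.4 CPM in outer zone cells and 63.1, 69.4 and 70.8 CPM in inner zone cells (1.06 ± 0.37). SFRP5, by contrast, overlapped, with 30.1 and 11.6 CPM in outer zone cells and 13.1, 4.38 and 9.27 CPM in inner zone cells. FRZB, of the same family, was lower in outer zone cells within both numbers but overlapped, with 1.32 and 2.30 CPM in outer zone cells and 2.88, 3.67 and 1.67 CPM in inner zone cells. DKK3, a dickkopf-related glycoprotein, was lower in outer zone cells without overlap, with 440 and 455 CPM in outer zone cells and 671, 692 and 646 CPM in inner zone cells. The 23 tested Wnt modulators as a whole were not shifted: 4 lay higher and 3 lower without overlap, against 11.9% and 11% of all tested genes. Their median log2 difference was 0.10.

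Several matrix metalloproteinases stood higher in outer zone cells. Of those with at least 10 CPM in the higher zone, the stromelysin MMP3 and the collagenase MMP13 differed most, while others, such as MMP16 (-0.26 ± 0.39), did not stand higher. MMP3 (chromosome 9, 33446969 to 33453995) had 405 and 236 CPM in outer zone cells, against 49.6, 61.5 and 80.0 CPM in inner zone cells, and its log2 difference was 2.33 ± 0.59. MMP13, a collagenase that cleaves type II collagen and that lies on the same stretch of chromosome 9 (33549003 to 33616700), had 39.7 and 13.1 CPM in outer zone cells and 1.77, 2.19 and 5.82 CPM in inner zone cells (3.00 ± 1.17). For both genes the zones did not overlap. MMP2, the gelatinase that is abundant in fibroblasts, had 1809 and 1568 CPM in outer zone cells and 1095, 1013 and 1059 CPM in inner zone cells, a smaller difference of 0.68 ± 0.74. MMP14, the membrane protease that activates MMP2, had 1595 and 1183 CPM in outer zone cells, against 931, 1032 and 1060 CPM in inner zone cells. TIMP1, an inhibitor of these enzymes, was lower in outer zone cells within both numbers but not beside inner zone 149, with 169 and 134 CPM in outer zone cells and 330, 311 and 77.9 CPM in inner zone cells. Of 33 tested proteases and inhibitors, 8 stood higher and 2 lower in outer zone cells without overlap, against 11.9% and 11% of all tested genes. Without inner zone 149 the counts were 13 and 6, against 20.2% and 20.8%. Of the 33, 6 averaged below 1 CPM in both zones, including the 2 lower members and some of the 8 higher members. The median log2 difference was 0.31.

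Complement genes, which serve innate immunity and are made by many fibroblasts, stood higher in outer zone cells in 9 of 18 tested members without overlap, and lower in 1. Over all tested genes the shares were 11.9% higher and 11% lower. Both counts were the same without inner zone 149, where those shares were 20.2% and 20.8%. The median log2 difference was 0.79. Of the 18, 8 averaged below 1 CPM in both zones, including C6 and C7, which are counted among the 9. C2, the complement factor with the smallest adjusted p of the comparison (chromosome 7, 24020590 to 24034042), had 62.0 and 51.9 CPM in outer zone cells, against 6.71, 14.8 and 12.7 CPM in inner zone cells. The zones did not overlap, the inner zone libraries spread more widely than the outer zone libraries, and the log2 difference was 2.32 ± 0.37 with an adjusted p of 0.246 in edgeR. SERPING1, the inhibitor of the first complement component, had 163 and 103 CPM in outer zone cells and 68.3, 69.5 and 51.9 CPM in inner zone cells (1.07 ± 0.40). C1S, a protease of that component, had 290 and 175 CPM in outer zone cells and 134, 141 and 126 CPM in inner zone cells, and its partner C1R differed by 0.72 ± 0.32. CFI, which inactivates C3b, was low, with 4.39 and 8.99 CPM in outer zone cells and 1.08, 2.42 and 2.00 CPM in inner zone cells. The exception was C1QTNF3, a C1q-related adipokine, with 6.98 and 4.36 CPM in outer zone cells, against 17.2, 11.4 and 10.5 CPM in inner zone cells.

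Cytokine and chemokine genes showed a like pattern, with 8 of 24 tested members higher and 1 lower in outer zone cells without overlap (9 and 3 without inner zone 149) and a median log2 difference of 0.53. Shares over all tested genes were 11.9% higher and 11% lower, or 20.2% and 20.8% without inner zone 149. Of the 24, 9 averaged below 1 CPM in both zones, including a member counted among the 8. CXCL14, a chemokine of epithelium and fibroblasts, had 24.4 and 13.6 CPM in outer zone cells and 1.39, 3.30 and 4.36 CPM in inner zone cells (2.64 ± 1.18). IL33, an alarmin held in the nucleus, had 10.2 and 12.1 CPM in outer zone cells and 3.10, 2.75 and 1.81 CPM in inner zone cells (2.13 ± 0.92). CCL2, which attracts monocytes, had 101 and 83.5 CPM in outer zone cells, against 31.7, 59.7 and 25.4 CPM in inner zone cells. IL6 was low, with 6.04 and 4.12 CPM in outer zone cells and 1.68, 1.73 and 2.69 CPM in inner zone cells. Leukocyte markers were near 0: their summed level was 19.0 and 20.1 CPM in outer zone cells and 17.3 to 17.9 CPM in inner zone cells, and most of it was CD14, at 14.7 and 16.6 CPM in outer zone cells and 14.8 to 15.9 CPM in inner zone cells.

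Genes of sterol and fatty acid synthesis differed little each but nearly all in 1 direction. Of 21 tested members, 20 had a positive log2 difference, 9 stood higher in outer zone cells without overlap and 0 lower, and the median was 0.42. Without inner zone 149, 20 of 21 stood higher without overlap. Of all tested genes, 11.9% stood higher and 11% lower without overlap, and 20.2% stood higher without inner zone 149. CYP51A1, the lanosterol demethylase, had 127 and 97.3 CPM in outer zone cells and 63.5, 66.0 and 74.0 CPM in inner zone cells (0.73 ± 0.18). HMGCS1, the synthase that makes HMG-CoA, had 96.6 and 78.2 CPM in outer zone cells and 56.9, 57.1 and 77.1 CPM in inner zone cells (0.46 ± 0.17). SQLE, squalene epoxidase, had 79.3 and 54.1 CPM in outer zone cells and 43.0, 41.3 and 53.6 CPM in inner zone cells. SREBF2, the transcription factor of the pathway, had 225 and 187 CPM in outer zone cells and 175, 181 and 176 CPM in inner zone cells. ACACA was the member without a positive difference (-0.09 ± 0.21).

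SREBF2 protein acts through sterol regulatory elements in promoters, so the 250 bases before the RefSeq start of each of these genes were searched for TCACNCCAC on both strands (Sscrofa11.1). The motif was found in 3 of 19 promoters of the list that could be read (15.8%), against 157 of 19559 promoters of protein-coding genes (0.803%). Most promoters of the list had no match. The list was drawn up by pathway and the motif chosen after the values were seen, so the share describes the list. Its relation to the zone difference was not tested. HMGCS1 and SREBF2 are among the 3. The zones did not overlap for either gene, but only by a narrow margin, as the levels given above show. A match describes these bases and says nothing of binding in these cells, and the annotated start can lie away from the start used. These promoters are shown as examples of the element, 5′ to 3′ on the strand of the gene, with the match in capitals. HMGCS1 lies on the minus strand (chr16:27957262-27957511) and SREBF2 on the minus strand (chr5:6784725-6784974).
HMGCS1: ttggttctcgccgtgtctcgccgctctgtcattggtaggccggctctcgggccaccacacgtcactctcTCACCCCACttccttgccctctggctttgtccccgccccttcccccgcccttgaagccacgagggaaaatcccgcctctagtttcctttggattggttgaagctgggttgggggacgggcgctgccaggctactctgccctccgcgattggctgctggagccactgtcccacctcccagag
SREBF2: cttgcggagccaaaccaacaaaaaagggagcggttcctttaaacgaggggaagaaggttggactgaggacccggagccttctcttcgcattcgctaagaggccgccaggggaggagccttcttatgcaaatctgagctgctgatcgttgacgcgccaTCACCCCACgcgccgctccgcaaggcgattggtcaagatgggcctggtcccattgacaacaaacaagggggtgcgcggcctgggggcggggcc
The match began 181 bases before the annotated start in HMGCS1 and 93 bases before it in SREBF2, in both cases on the strand of the gene.

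Further single genes stood higher in outer zone cells. CHRDL1, a secreted antagonist of BMP4, had 159 and 87.0 CPM in outer zone cells and 18.6, 27.7 and 22.1 CPM in inner zone cells, with narrow replicates in the inner zone (2.43 ± 0.77). ALDH1A1, which makes retinoic acid from retinal, had 8.32 and 21.2 CPM in outer zone cells, against 0.190, 0.784 and 5.08 CPM in inner zone cells. The level in inner zone 147 rests on 6 reads, and inner zone 149 lay far above the other inner zone libraries. MFAP5, a glycoprotein of elastic microfibrils, had 49.8 and 13.6 CPM in outer zone cells and 3.10, 3.99 and 6.91 CPM in inner zone cells (2.76 ± 0.59). SLIT2, a ligand of ROBO receptors, had 13.1 and 7.30 CPM in outer zone cells and 1.80, 1.75 and 0.977 CPM in inner zone cells. PI16, a peptidase inhibitor of adventitial fibroblasts, had 17.5 and 25.3 CPM in outer zone cells and 1.77, 1.78 and 12.8 CPM in inner zone cells, again with inner zone 149 apart. CAPN6, a calpain without protease activity, had 17.3 and 7.85 CPM in outer zone cells and 3.36, 2.40 and 2.81 CPM in inner zone cells. WISP2, the matricellular protein CCN5, had 120 and 65.3 CPM in outer zone cells and 24.4, 33.9 and 28.2 CPM in inner zone cells (1.68 ± 0.50). IGFBP4, which binds insulin-like growth factors, had 396 and 459 CPM in outer zone cells and 160, 176 and 242 CPM in inner zone cells, and its outer zone libraries were close to each other. GPNMB, a glycoprotein of lysosomes and melanosomes, had 344 and 262 CPM in outer zone cells and 125, 129 and 137 CPM in inner zone cells (1.22 ± 0.69).

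Most but not all cartilage genes leaned lower in outer zone cells. Of 27 tested chondrogenic genes, 21 had a negative log2 difference and 6 a positive one, and the median was -0.42. Of these 27, 7 lay lower in outer zone cells without overlap and 2 higher, against 11% and 11.9% of all tested genes. Without inner zone 149 the counts were 14 lower and 4 higher, against 20.8% and 20.2%. Of the 27, 10 averaged below 1 CPM in both zones, including CNMD among the 7 and MATN3 among the 2. COMP, an abundant member, was higher in outer zone cells within both numbers (1.06 and 1.06) but overlapped. It had 1037 and 1031 CPM in outer zone cells, against 497, 495 and 1082 CPM in inner zone cells. COL2A1, type II collagen (chromosome 5, 78350131 to 78380893), had 6.76 and 5.35 CPM in outer zone cells, against 29.1, 34.8 and 7.60 CPM in inner zone cells. The zones did not overlap, but inner zone 149 was close to the outer zone level, and the log2 difference of -1.98 ± 1.04 became -2.40 without it. COL11A1, which forms fibrils with type II collagen (chromosome 4, 115638381 to 115841679), had 1600 and 1728 CPM in outer zone cells and 4528, 4656 and 3428 CPM in inner zone cells. Replicates of each zone were tight for this gene and the difference was -1.34 ± 0.48. ACAN, the proteoglycan aggrecan, had 160 and 125 CPM in outer zone cells, against 401, 207 and 375 CPM in inner zone cells (-1.20 ± 0.55). SOX9, the transcription factor of chondrocytes, had 25.9 and 41.4 CPM in outer zone cells and 51.9, 50.2 and 55.8 CPM in inner zone cells (-0.64 ± 0.43). HAPLN1, which links aggrecan to hyaluronan, had 13.9 and 21.7 CPM in outer zone cells and 61.8, 48.6 and 14.2 CPM in inner zone cells, so that inner zone 149 lay within the outer zone. MATN4, a matrilin, had 4.45 and 4.36 CPM in outer zone cells and 12.8, 15.5 and 5.60 CPM in inner zone cells.

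Chains of type I, III and V collagen were mostly lower in outer zone cells, by small differences. Most differences were near or below their error, which is taken over all 14 libraries, explants and cartilage included. COL1A1, type I collagen, had 71740 and 82000 CPM in outer zone cells, against 107900, 110500 and 97320 CPM in inner zone cells (-0.45 ± 0.70). COL1A2 differed by -0.34 ± 0.48, COL3A1 by -0.18 ± 0.47 and COL5A2 by -0.47 ± 0.31, all without overlap. Of 15 tested collagens of this list, 7 lay lower and 2 higher without overlap, against 11% and 11.9% of all tested genes. The 2 were COL5A3, a chain of type V collagen, and COL14A1, a collagen on the surface of fibrils. COL5A3 had 147 and 102 CPM in outer zone cells and 74.5, 91.3 and 94.8 CPM in inner zone cells (0.52 ± 0.69), and COL14A1 had 212 and 197 CPM in outer zone cells and 159, 143 and 151 CPM in inner zone cells. SPARC, a collagen-binding glycoprotein, had 9005 and 8656 CPM in outer zone cells and 12670, 12770 and 11680 CPM in inner zone cells.

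Further matrix genes were lower in outer zone cells, at least within both numbers. LOXL2, a lysyl oxidase, had 910 and 838 CPM in outer zone cells, against 1747, 1723 and 972 CPM in inner zone cells. LOXL4, of the same family, had 103 and 195 CPM in outer zone cells and 399, 458 and 162 CPM in inner zone cells, where inner zone 149 lay between the outer zone libraries. The family did not share this pattern: LOX differed by -0.29 ± 0.49 and LOXL1 by 0.72 ± 0.39, which became -0.39 without outer zone 147. ELN, elastin, had 435 and 387 CPM in outer zone cells and 935, 649 and 597 CPM in inner zone cells (-0.82 ± 0.57). SPP1, osteopontin, had 94.4 and 92.0 CPM in outer zone cells, against 380, 310 and 108 CPM in inner zone cells (-1.51 ± 0.51). NOV, the matricellular protein CCN3, had 62.9 and 64.8 CPM in outer zone cells and 194, 259 and 56.0 CPM in inner zone cells. MGP, matrix Gla protein, had 51.9 and 102 CPM in outer zone cells and 188, 251 and 61.9 CPM in inner zone cells. For SPP1, NOV and MGP, inner zone 149 stood with the outer zone libraries.

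Several genes of secreted signals were lower in outer zone cells. GDF6, a BMP family ligand needed for joint formation, had 2.69 and 3.10 CPM in outer zone cells and 20.2, 14.8 and 3.77 CPM in inner zone cells (-2.15 ± 0.74). STC2, stanniocalcin 2, which inhibits the protease PAPP-A, had 69.3 and 109 CPM in outer zone cells and 165, 210 and 142 CPM in inner zone cells. TGFB2 had 73.6 and 57.1 CPM in outer zone cells and 123, 99.6 and 86.0 CPM in inner zone cells (-0.65 ± 0.34). GLDN, gliomedin of peripheral nerve, had 4.26 and 3.25 CPM in outer zone cells and 16.9, 8.86 and 22.8 CPM in inner zone cells. SHISA2, of the Shisa family of endoplasmic reticulum proteins, had 3.21 and 3.40 CPM in outer zone cells and 20.5, 16.5 and 5.48 CPM in inner zone cells. LRRC15, a surface protein of myofibroblasts, had 4.88 and 8.93 CPM in outer zone cells, against 32.8, 19.0 and 12.01 CPM in inner zone cells. AFF2, HOMER2 and GNG2 also lay lower in outer zone cells without overlap, with log2 differences of -1.60, -1.26 and -1.20.

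Cell cycle genes leaned lower in outer zone cells. Of 30 tested members, 26 had a negative log2 difference, with a median of -0.53. Of the 30, 9 lay lower and 4 higher without overlap, against 11% and 11.9% of all tested genes. Without inner zone 149 the counts were 23 lower and 4 higher, against 20.8% and 20.2%. TOP2A, the topoisomerase of dividing cells, had 31.6 and 62.5 CPM in outer zone cells, against 115, 67.0 and 52.7 CPM in inner zone cells. CDK1 had 6.14 and 8.91 CPM in outer zone cells and 15.9, 11.4 and 9.25 CPM in inner zone cells. UBE2C, a ubiquitin conjugase of mitosis, had 16.7 and 26.3 CPM in outer zone cells and 47.0, 36.0 and 29.4 CPM in inner zone cells (-0.80 ± 0.50). FOXM1, a transcription factor of mitotic genes, had 7.11 and 6.94 CPM in outer zone cells and 18.0, 10.5 and 7.65 CPM in inner zone cells. CDKN1A, which encodes the inhibitor p21, was in the same direction, with 51.9 and 58.7 CPM in outer zone cells and 81.0, 81.99 and 67.4 CPM in inner zone cells. Not all inhibitors were: CDKN1C had 79.4 and 73.0 CPM in outer zone cells, against 63.3, 61.8 and 64.8 CPM in inner zone cells. CDKN1C and D-type cyclins are among the 4 members higher without overlap.

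Within each shared number, outer minus inner was read as a difference of log2 CPM, with 1 library per zone and hence no test. Among 11349 genes averaging 1 CPM or more over the 4 libraries, 750 differed by more than 1 within number 147 and 319 within number 148. Of these, 148 were higher and 70 lower in outer zone cells by more than 1 in both numbers, and 3 were past 1 in opposite directions. Over all 11349 genes, 6996 (61.6%) had the same sign within both numbers, with Pearson's r of 0.633 and Spearman's rho of 0.410 across genes, which are not independent replicates. Differences were generally larger within number 147: SFRP2 differed by 4.54 within 147 and 2.10 within 148, and MYH11 by 5.03 and 2.57. ALDH1A1 was high in both, at 5.06 and 4.65, and PI16 at 3.26 and 3.78. Some of the 11349 genes had close values in both numbers, such as COL11A1 at -1.50 and -1.43 and COMP at 1.06 and 1.06. FAM198B, a Golgi protein, was at 2.18 and 1.86. The median of the cell cycle list was -0.90 within 147 and -0.33 within 148, and that of the sterol list 0.78 and 0.31. The chondrogenic list was steadier, at -0.46 and -0.36.

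**Figure D2:**
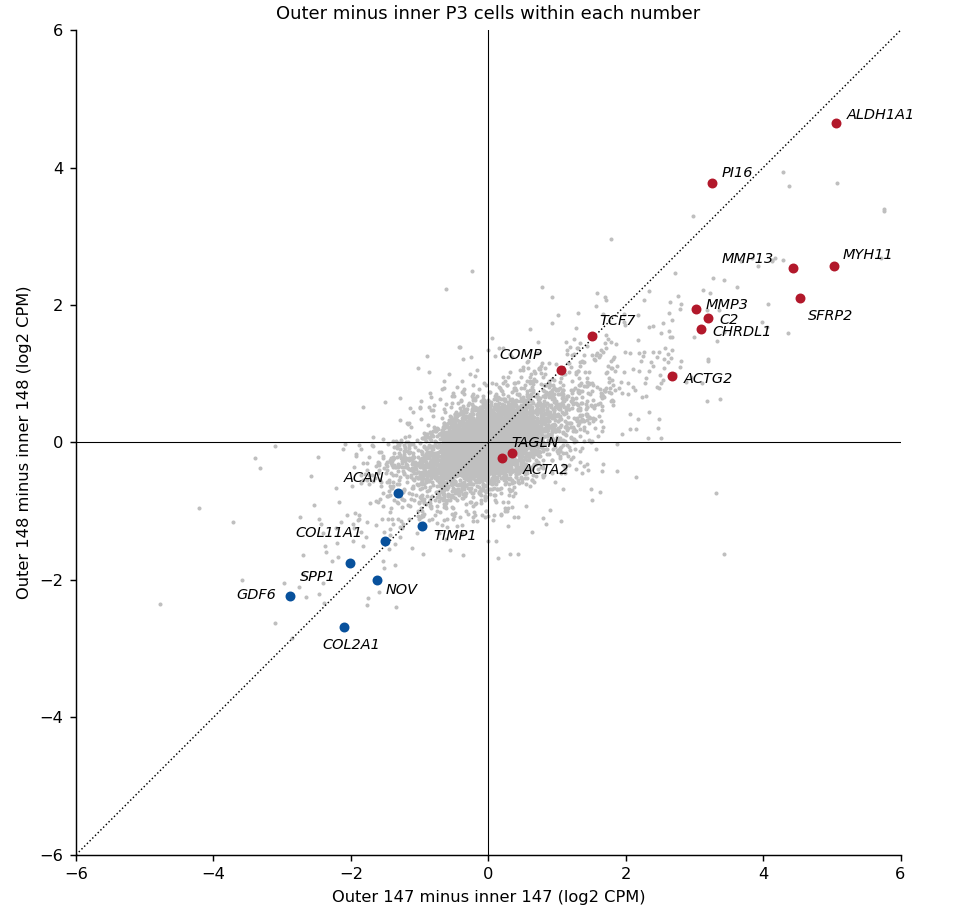
Difference of log2 CPM between outer and inner zone P3 cells within number 147 (horizontal axis) and within number 148 (vertical axis), for genes averaging 1 CPM or more; grey points are single genes, red and blue points named genes whose log2 difference over all 5 libraries is positive and negative, and the dotted line marks equal differences. SFRP2 lies well to the right of the line at 4.54 and 2.10, while COL11A1 lies close to it at -1.50 and -1.43.

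**Figure D3:**
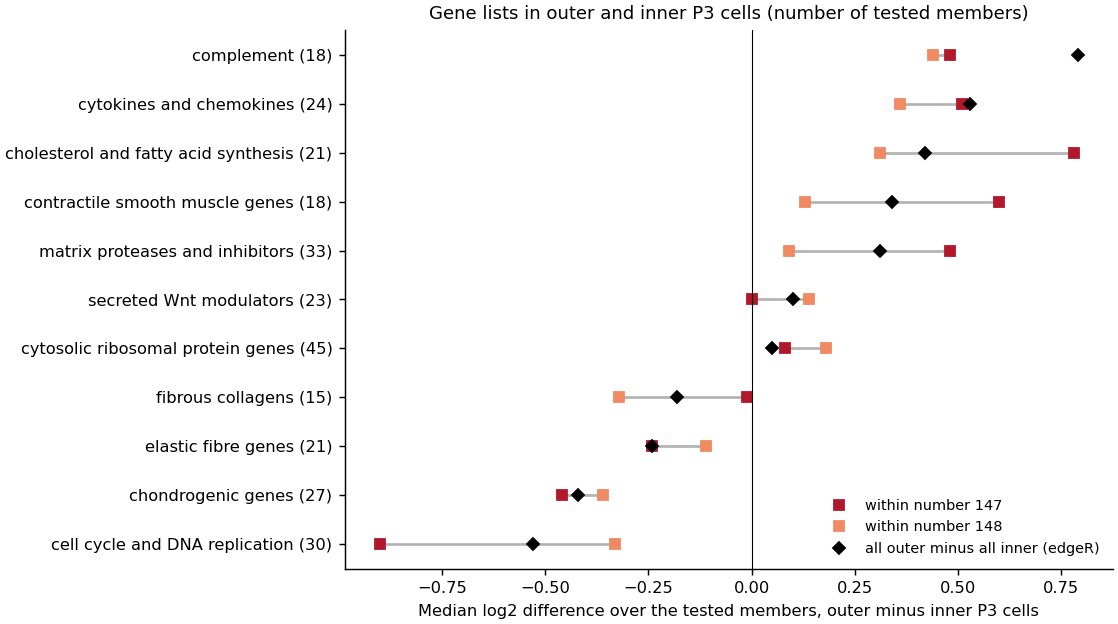
Median log2 difference, outer minus inner zone P3 cells, over the tested members of 11 gene lists, within number 147 and number 148 (squares) and between all outer and all inner zone libraries (diamonds). The cell cycle list lies at -0.53 over all libraries and the complement list at 0.79; within-number values of low genes are drawn toward 0 by the prior count of 2.

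Inner zone 149 was placed on the genes that differ by more than 1 within both numbers. It was not used to choose them, but the libraries that chose them also set the ends of the scale, so a library left out can lie inward from the inner zone end for that alone, and the places are a description. With at least 10 CPM on average, 23 such genes were lower in outer zone cells, and for 19 of them (82.6%) inner zone 149 was nearer to the mean of the outer zone libraries than to the mean of inner zone 147 and 148. For the 45 genes higher in outer zone cells this held for 20 (44.4%). On a scale where 0 is the mean of inner zone 147 and 148 and 1 the mean of the outer zone libraries, the median place of inner zone 149 was 0.879 over the first group and 0.436 over the second. COMP, the cartilage oligomeric matrix protein, had 1037 and 1031 CPM in outer zone cells, against 497, 495 and 1082 CPM in inner zone cells. TCF7, a transcription factor of the Wnt pathway, had 47.9 and 32.8 CPM in outer zone cells and 16.8, 11.2 and 38.2 CPM in inner zone cells. The proteoglycan SDC1 had 70.6 and 47.3 CPM in outer zone cells and 22.5, 18.7 and 69.6 CPM in inner zone cells. IL11, a cytokine induced by TGF-beta, had 25.2 and 28.3 CPM in outer zone cells and 11.3, 11.6 and 33.3 CPM in inner zone cells. In each of these 4 genes inner zone 149 was at or above the lower outer zone library. EEF1A2, the elongation factor of muscle and nerve, had 16.5 and 9.19 CPM in outer zone cells and 0.887, 1.41 and 13.5 CPM in inner zone cells. MSMP, a small secreted protein, had 11.8 and 7.13 CPM in outer zone cells and 39.7, 34.3 and 4.41 CPM in inner zone cells. C2orf40, which encodes augurin, had 8.43 and 9.45 CPM in outer zone cells, against 57.4, 40.7 and 6.82 CPM in inner zone cells, so that for both genes inner zone 149 was the lowest library. No outer zone library 149 is at hand to set beside it.

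**Figure D4:**
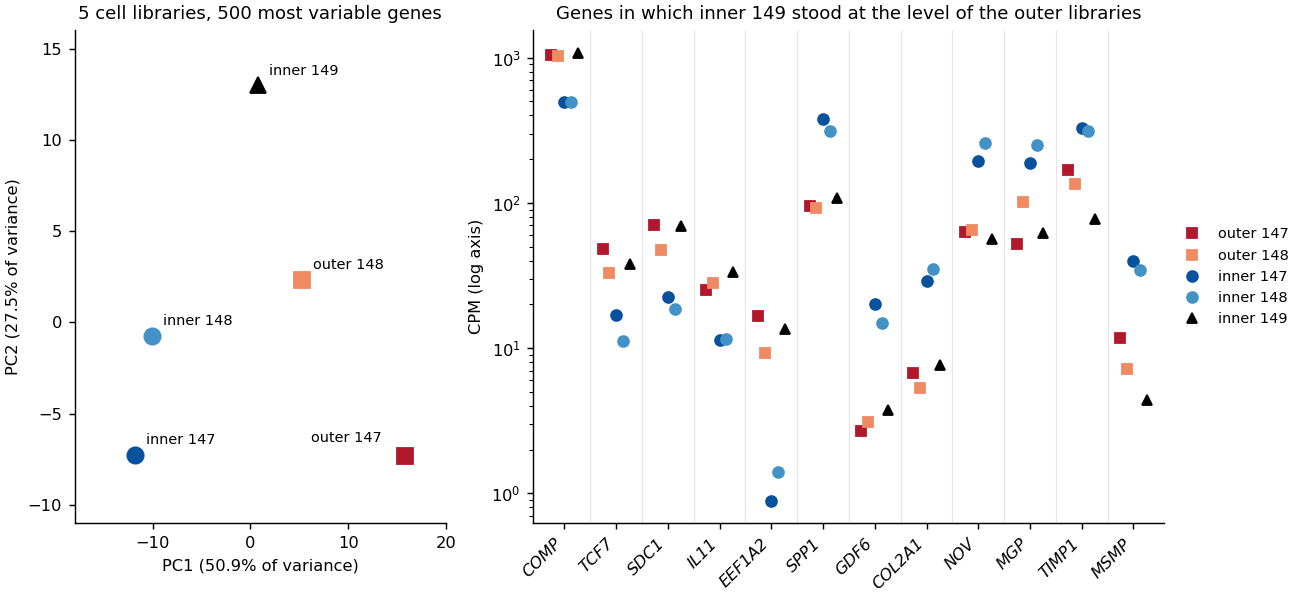
Left, first and second principal component of the 5 cell libraries on the 500 most variable genes, with 50.9% and 27.5% of the variance; right, CPM on a log axis of 12 genes in each library, outer zone libraries left of inner zone libraries. Inner zone 149 lies between the zones on the first component and apart from all others on the second, and for COMP it reaches 1082 CPM beside 1037 and 1031 CPM in outer zone cells.

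The zones of the tissue offered a choice of genes that did not use the cells. Genes whose 3 outer and 3 inner zone explants do not overlap, that differ there by more than 2 on the log2 scale and that average at least 5 CPM in the higher zone were 84 higher and 6 lower in outer zone tissue. Of the 84, 68 had at least 1 CPM in P3 cells of either zone. Among these 68, 56 (82.4%) had a positive difference in outer zone cells, against 49.3% of 11507 genes with at least 1 CPM, and their median log2 difference was 0.497 (0.725 within number 147 and 0.262 within number 148). With a tissue threshold of 1 on the log2 scale, the median over 168 such genes was 0.262 (0.473 within number 147 and 0.096 within number 148). Without overlap, 25 of the 68 stood higher in outer zone cells (36.8%) and 4 lower (5.88%), against 12.5% and 11.8% of the 11507 genes. MYH11, CXCL14 and C2 were among the 25. VCAM1, an adhesion molecule for leukocytes, had 96.3 and 39.8 CPM in outer zone cells and 17.1, 22.9 and 8.56 CPM in inner zone cells (2.07 ± 0.67). NOX4, a hydrogen peroxide-producing oxidase, had 48.6 and 23.9 CPM in outer zone cells and 10.4, 10.4 and 17.5 CPM in inner zone cells. LAMA5, a laminin chain of basement membranes, had 95.5 and 102 CPM in outer zone cells and 13.6, 45.1 and 55.8 CPM in inner zone cells.

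The 4 genes that pointed the other way without overlap were COL1A1, DPT, DKK3 and ASPN. DPT, dermatopontin, had 2.03, 17.7 and 19.2 CPM in outer zone tissue, against 0.650, 1.82 and 1.64 CPM in inner zone tissue, yet 44.1 and 72.2 CPM in outer zone cells, against 126, 93.4 and 78.4 CPM in inner zone cells. ASPN, asporin, had 8.42, 40.8 and 20.7 CPM in outer zone tissue and 1.85, 7.74 and 3.10 CPM in inner zone tissue, and 612 and 714 CPM in outer zone cells, against 990, 905 and 835 CPM in inner zone cells. COL1A1 had 165, 674 and 1433 CPM in outer zone tissue and 4.88, 6.52 and 17.3 CPM in inner zone tissue, so its order in the cells given before was the reverse of that in tissue. Whether the zone difference itself differed between cells and tissue was tested as an interaction in edgeR, and 0 of 15707 genes had an adjusted p under 0.01 (smallest 0.458), with 1173 at an unadjusted p under 0.05. The genes lower in outer zone tissue were too few to read, with 2 of 6 at 1 CPM or more in cells. The choice turns on outer zone explant 2: without it 223 genes were higher and 76 lower in outer zone tissue. Of the 161 higher genes with at least 1 CPM in cells, 83.9% had a positive difference in outer zone cells (median 0.482), and of the 37 lower genes 30 had a negative difference (median -0.580). The explants were not from the animals of the cells.

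**Figure D5:**
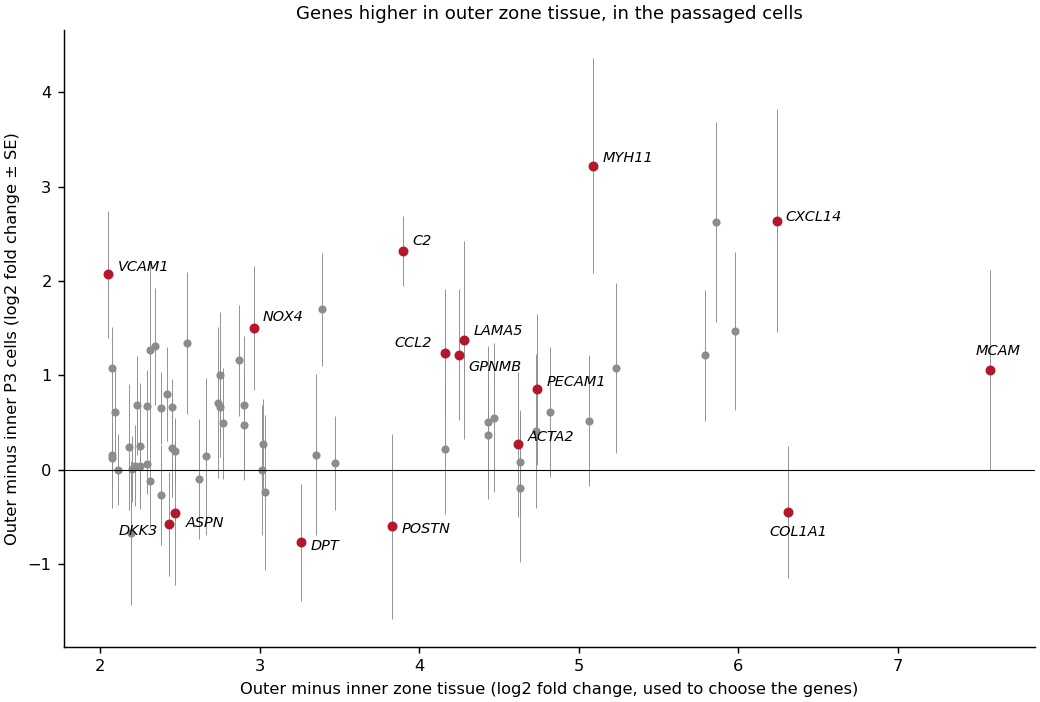
The 68 genes higher in outer zone tissue with at least 1 CPM in P3 cells. The horizontal axis is their log2 fold change between outer and inner zone tissue, which was used to choose them. The vertical axis is that between outer and inner zone P3 cells (2 outer and 3 inner zone libraries). Bars are 1 SE from the fit of all 14 libraries, explants and cartilage included. Of the 68 genes, 56 lie above 0 in cells. MYH11 lies highest at 3.22, and COL1A1 lies below at -0.45.

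Other genes overlapped between the zones. FSTL1, a follistatin-like glycoprotein, had 1496 and 1421 CPM in outer zone cells, against 1836, 1471 and 1410 CPM in inner zone cells (-0.11 ± 0.31), and ACTA2 and TAGLN overlapped as given above. VIM, vimentin, was alike in all 5 libraries, with 5818 and 7128 CPM in outer zone cells and 6926, 6284 and 5493 CPM in inner zone cells (0.05 ± 0.34). The 45 tested ribosomal protein genes gave 0 members without overlap in either direction, against 11.9% higher and 11% lower over all tested genes. Their median was 0.05. Without inner zone 149 they gave 29 higher and 0 lower, against 20.2% and 20.8%.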

How the data were processed

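Gene counts deposited by the authors were used as they are. Per the study's methods, the authors trimmed the reads, mapped them with STAR to the pig genome (Sscrofa11.1), kept reads with a single location and counted them per gene with HTSeq. The sources used here give neither tool versions nor how HTSeq treated strand. Reads of overlapping or near-identical genes, such as the actins, are therefore uncertain. The authors' normalized tables were not used.

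Of 25880 genes, 15707 reached a total of 10 reads in the 14 libraries and were tested, and 7608 had no reads. The quasi-likelihood F test of edgeR 4.0.16 (R 4.3.3) was run with TMM scaling on 1 mean per group over all libraries. The SE is the log2 fold change over the square root of F in this fit, so it takes in explants and cartilage. Alternatives used DESeq2 1.42.0, other filters, other scalings, only the cell libraries, and fits without each library. Within-number differences used log2 CPM with a prior count of 2. The fits were tested on simulated data. The cell libraries held 31523186 to 43304412 reads.

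Members and gene lists were chosen with earlier results of these data known. Genes were named if called in the main edgeR fit or in either edgeR fit with number as a block. Calls of DESeq2 were not a ground. Genes were also named if among the 12 leading non-overlapping genes of a direction or if measured by PCR in the study. Further grounds were leading their list or being a marker of a cell type. The 25 genes ACACA, ACAN, ASPN, C1R, C6, C7, CDK1, CNN1, DPT, ELN, FOXM1, FRZB, HAPLN1, HMGCS1, IL6, LMOD1, LOXL1, MYLK, NOX4, SERPING1, SOX9, SQLE, SREBF2, TOP2A and VCAM1 were chosen after their values were seen. Symbols came from the deposited table for 12963 tested genes and from a table of identifiers for 890. Positions and promoters were matched by symbol to RefSeq (Sscrofa11.1). The sterol motif was chosen after the values were seen. A search of contractile promoters for the CArG box, made before it, gave no match in the leading contractile genes and is not shown. Some items are not reported here.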

Additional observations from a re-analysis of the deposited data

How the results depend on the processing

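The edgeR count of 0 calls was also 0 with median of ratios scaling, with only the cell libraries, with no filter, with filterByExpr, with a test against a 2-fold change, and without each cell library in turn (range 0 to 0, with 191 to 632 genes at an unadjusted p under 0.05). DESeq2 called 10 genes with all libraries and 92 with the cell libraries alone, 8 of them shared. With number as a replicate block, edgeR called 100 of 14199 genes in the cell libraries (63 higher and 37 lower in outer zone cells, with 1 residual degree of freedom) and 18 in the 11 meniscus libraries (7 higher and 11 lower), 15 of them shared. Deviations of same-numbered libraries correlated at 0.262 for 147 and 0.317 for 148. As the outer zone has 2 libraries, their deviations are exact opposites (correlation of -1). The 2 values thus rest on the same outer zone contrast and are not separate evidence. With 2 pairs, and labels that do not tie a number to an animal, the libraries share only a number. The cause of these differences in count was not tested.

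Without inner zone 149, the non-overlapping genes were 3177 higher and 3269 lower in outer zone cells. The median in cells of genes lower in outer zone tissue was -0.271 over 2 genes, -0.580 without outer tissue replicate 2 and -0.328 with a tissue threshold of 1. Of 1372 values of 98 named genes under alternatives, 13 reversed, all from differences near 0 except that of LOXL1. Over the fits without 1 cell library each, the lowest and highest values were -0.23 and 0.04 for ACACA, -0.19 and 0.62 for ACTA2, -0.20 and 0.49 for DCN, -0.18 and 0.02 for FSTL1, -0.39 and 1.34 for LOXL1, -0.04 and 0.24 for PRRX1, -0.12 and 0.40 for TAGLN, and -0.10 and 0.19 for VIM. The sign changed without outer zone 148 for ACACA, DCN, PRRX1 and VIM, without outer zone 147 for ACTA2, LOXL1 and TAGLN, without inner zone 147 for FSTL1, and without inner zone 149 for VIM. In both block fits TAGLN was at -0.02 and VIM at -0.04. The first component held 42.1% of the variance with all genes and 46.4% on log2 CPM.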
